A study of Mus musculus with 18 samples.

Results

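The 9 genes described here are the osteoblast regulators Runx2 and Sp7, the alkaline phosphatase gene Alpl, the bone matrix genes Bglap, Ibsp, Spp1 and Dmp1, and the osteocyte genes Phex and Sost. They were taken by symbol from a table of 27179 genes, and each of the 9 had a single row. RNA was sequenced from bone marrow mesenchymal stem cells (MSCs) of C57BL6 mice, in 3 groups of 6 libraries. The mice were all male. Young MSCs came from mice of 6 weeks and old MSCs from mice of 18 to 24 months, and neither was treated. Rejuvenated old MSCs were old MSCs kept for 7 days in indirect co-culture with young MSCs, across a membrane that passes soluble factors and not cells. All groups were sampled at day 7. The labels give alpha-MEM with serum as the medium, whereas the methods of the study describe expansion in a different basal medium with a low-serum supplement, and neither names an osteogenic supplement for these cultures. Old MSCs kept in co-culture with other old MSCs were not analysed here, so the age of the neighbouring cells and the presence of a second layer cannot be told apart. The labels call the 6 libraries of a group biological replicates but do not say how many mice stand behind them, so the p-values measure only the spread between these libraries.

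MSCs of the marrow can become osteoblasts, adipocytes or chondrocytes. Runx2 commits a precursor to the osteoblast lineage, and Sp7 (osterix) acts downstream of it. Alpl frees phosphate from pyrophosphate at the cell surface, which allows mineral to form. Osteoblasts then secrete a matrix with non-collagenous proteins such as osteocalcin (Bglap), bone sialoprotein (Ibsp) and osteopontin (Spp1), and cells buried in that matrix become osteocytes, which make Dmp1, Phex and sclerostin (Sost). Ibsp, Dmp1 and Spp1 belong to a family of small integrin-binding glycoproteins, and they lie close to each other on chromosome 5. Osteopontin is not restricted to bone, and macrophages are a well-known source of it.

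On the build GRCm38.p6, Dmp1 (Entrez gene 13406) covers chromosome 5 from 104197575 to 104214102, Ibsp (15891) from 104299287 to 104311472 and Spp1 (20750) from 104435111 to 104441053. Bglap (12096) lies on chromosome 3 from 88383495 to 88384466, and Alpl (11647) on chromosome 4 from 137741731 to 137796384. Runx2 (12393) lies on chromosome 17 from 44495987 to 44814797, Sp7 (170574) on chromosome 15 from 102356603 to 102367035, Sost (74499) on chromosome 11 from 101962458 to 101967015 and Phex (18675) on chromosome X from 157162075 to 157415286.

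RUNX factors bind the letters TGTGGT, which read ACCACA on the other strand. These letters were searched on both strands in the 250 bases before each start site that RefSeq gives for GRCm38.p6. Promoters of 8 members were in that table, with 11 start sites, and Sp7 was not among them. The motif stood before 4 of the 11 start sites, those of Bglap, Spp1, Dmp1 and Runx2, against 14.05% of the 32851 start sites of all genes. These stretches are shown because Runx2 encodes a factor that binds this motif and 3 of the matrix genes carry it, with the motif in capitals and written 5′ to 3′ on the strand of the gene.
Bglap, chr3:88384467-88384716, minus strand: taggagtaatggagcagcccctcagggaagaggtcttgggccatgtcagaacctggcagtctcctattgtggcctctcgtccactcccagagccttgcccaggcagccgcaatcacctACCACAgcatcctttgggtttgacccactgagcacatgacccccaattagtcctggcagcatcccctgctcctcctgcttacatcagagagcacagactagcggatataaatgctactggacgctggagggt
Spp1, chr5:104434861-104435110, plus strand: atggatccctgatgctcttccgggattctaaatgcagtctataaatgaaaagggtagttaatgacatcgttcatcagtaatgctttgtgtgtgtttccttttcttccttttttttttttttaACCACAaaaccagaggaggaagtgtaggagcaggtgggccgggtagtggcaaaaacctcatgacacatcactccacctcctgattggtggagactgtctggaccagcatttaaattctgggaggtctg
Dmp1, chr5:104202367-104202612, plus strand: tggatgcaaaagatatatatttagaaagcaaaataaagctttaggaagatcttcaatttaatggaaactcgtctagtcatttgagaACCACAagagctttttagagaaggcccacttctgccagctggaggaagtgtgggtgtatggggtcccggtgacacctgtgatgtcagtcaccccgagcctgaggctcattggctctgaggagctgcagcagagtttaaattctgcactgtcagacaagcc
Runx2, chr17:44814690-44814719, minus strand: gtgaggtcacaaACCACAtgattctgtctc
The motif began 132 bases before the start of Bglap, 128 before that of Spp1, 164 before the second start of Dmp1 and 80 before that of Runx2. The stretch of Runx2 was kept to 30 bases because the motif lies within an annotated exon of other Runx2 transcripts. A match of 6 letters is a description of the sequence and not a measured binding site.

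The libraries held 22936251 to 29559194 recovered reads. Values are normalized counts, the reads of a gene divided by 1 size factor per library. Differences between groups are given on the log2(normalized count + 1) scale with the adjusted p of limma, fitted over the 14353 genes that averaged 10 or more normalized counts and called at an adjusted p under 0.05. Of the 9 members, 8 passed that minimum and Sost did not. Bglap and Ibsp passed only through the old libraries, since their means over the young and rejuvenated libraries were 8.02 and 5.54, so a difference from old MSCs was built into their passing.

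Of 9 markers of marrow stromal cells, 9 had a mean of at least 10 in young MSCs and 8 in each of the other groups, the exception being Thy1 (mean 197.7 in young MSCs, 1.21 in old MSCs and 4.10 after co-culture). Their summed normalized count was 70253 to 83409 in young, 255246 to 274332 in old and 286533 to 341808 in rejuvenated old libraries. Of these 9 markers, 3 were called higher and 6 lower in young than in old MSCs. Markers of other cells also differed between young and old cultures. The summed normalized count of 17 macrophage markers, led by Lyz2, C1qc and Cd68, was 1008 to 1110 in young libraries, 16265 to 20474 in old and 16475 to 20028 in rejuvenated old, with no read of Adgre1 or Ptprc in any young library. Of the 15 tested macrophage markers, 14 were called lower and 1 higher in young than in old MSCs. The 8 adipocyte markers, led by Lpl, Plin4 and Cebpa, summed to 17585 to 20007 in young, 44632 to 46338 in old and 47303 to 59001 in rejuvenated old libraries. The 8 chondrocyte markers, led by Col2a1, Col10a1 and Sox5, summed to 567.8 to 619, 2148 to 2473 and 2737 to 3372, with no read of Acan in rejuvenated old MSCs. Of their 4 tested genes Col2a1 and Col10a1 were lower in young than in old MSCs, and Sox5 and Comp were higher. The 9 osteoclast markers, led by Ctsk, Nfatc1 and Mmp9, summed to 1253 to 1331, 5136 to 5402 and 4402 to 5455, mostly from Ctsk in the old and rejuvenated old cultures, while the mean of Acp5 stayed below 10 in every group. Of the 5 tested osteoclast markers 2 were called higher and 2 lower in young than in old MSCs, and 1 was not called. The sum of the 6 endothelial markers (Vwf, Kdr and Tek highest) stayed between 127 and 211 in all groups. Of the 3 tested endothelial markers, however, 2 were called higher and 1 lower in young than in old MSCs. The 9 markers of other blood cells (Pf4, Ppbp and Cd79a highest) reached 8.10, 147 and 289 at most, with no read of Hba-a1, Hbb-bs or Mpo.

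Comparison of young with old MSCs showed lower levels of every tested member in young MSCs. The early regulator Runx2 had the smallest fitted difference. All 8 tested members were called and all 8 were lower in young MSCs, where 85.7% of the 14353 tested genes were called and 44.1% were called lower (41.6% were called higher). For all 8 the 6 young libraries lay below the 6 old libraries, a separation in one direction or the other that 73.9% of tested genes showed. The median difference was −3.83 over the 8 members and −0.02 over all tested genes. Bglap and Ibsp count among the 8 although a difference from old MSCs was built into their passing the minimum. With a minimum mean of 50, under which neither was tested, 6 members were called, all lower in young MSCs. At that setting 10630 of 12203 tested genes were called, 5433 of them lower. The members were chosen with earlier results of these data known, so the shares of all genes are no test of them. Fewer cells of a type and less RNA per cell cannot be told apart in these bulk libraries.

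**Figure D1:**
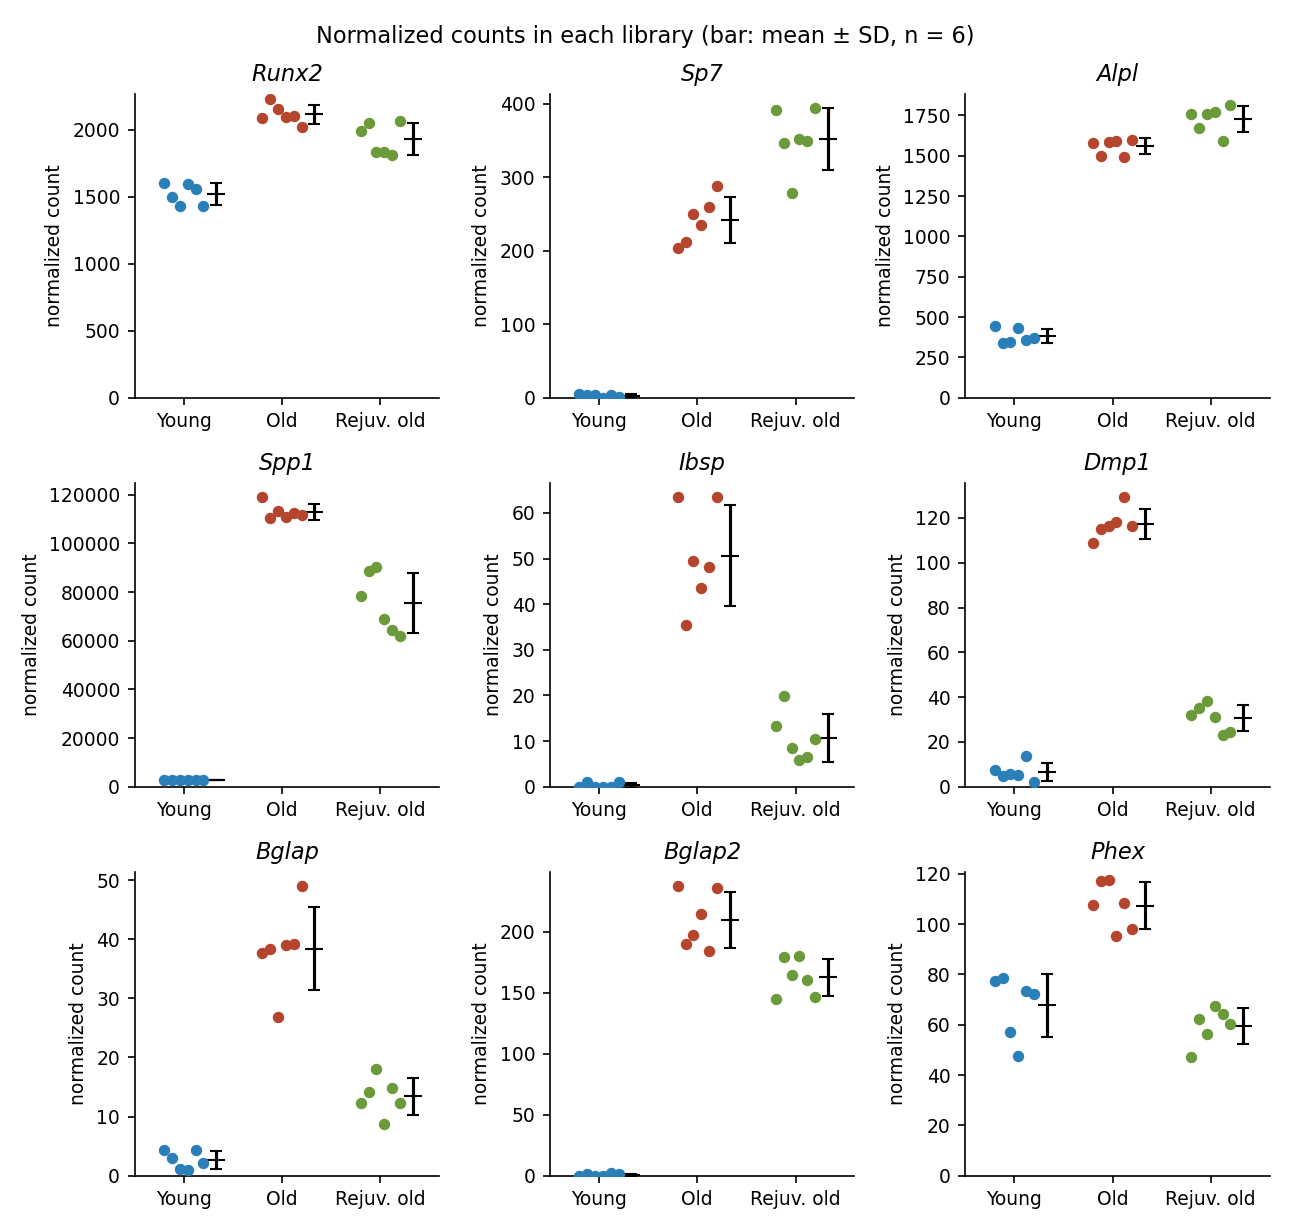
Normalized counts (vertical axes, from 0) of 8 members and of the second osteocalcin gene Bglap2 in the 6 young, 6 old and 6 rejuvenated old libraries, with points for libraries and bars for mean ± SD (n = 6). In all 9 panels every young point lies below every old point, and the rejuvenated old points lie near or above the old ones for Sp7 and Alpl, near them for Runx2 and well below them for Ibsp, Dmp1 and Bglap.

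Runx2, which starts the osteoblast programme, was abundant in every library. Its normalized count was 1427 at the lowest, 1526 at the median and 1605 at the highest of the young libraries, 2022, 2096 and 2229 in the old, and 1809, 1911 and 2062 in the rejuvenated old. Old libraries were thus all above young ones, while rejuvenated old libraries overlapped the old. The young mean was 28.1% below the old (1519 ± 79.3 against 2114 ± 70.7, SD, n = 6 each), a log2 difference of −0.48 ± 0.04 (SE) with adjusted p = 2.29e-10.

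Sp7, the zinc finger factor that follows Runx2, was close to absent from young MSCs. Young libraries held 0, 3.17 and 5.44 normalized counts (lowest, median, highest), from 16 reads in all, and young replicate 4 held none. Old libraries held 204, 242 and 288, and rejuvenated old libraries 279, 350.4 and 394. The old mean was 84.8 times the young mean, with a 95% interval of 52.0 to 149 from counting error alone, and the log2 difference was −6.21 ± 0.30 (SE, adjusted p = 4.62e-15). Runx2 and Sp7, which act in sequence, thus differed by very unequal amounts between young and old MSCs.

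Alpl, the phosphatase often used to stain differentiating osteoblasts, was present in all groups. Young libraries ranged from 342 to 446 with a median of 364, old libraries from 1489 to 1599.8 with a median of 1584, and rejuvenated old libraries from 1592 to 1812 with a median of 1762. The old mean was 4.08 times the young mean (log2 difference −2.03 ± 0.06, adjusted p = 2.05e-19).

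Spp1 (osteopontin), a phosphorylated glycoprotein that binds mineral and integrins, was the most abundant member in every group. It held 2596, 2644 and 2857 normalized counts in young libraries (lowest, median, highest), 110455, 112042 and 119241 in old, and 62098, 73805 and 90406 in rejuvenated old. The 3 ranges did not overlap. Spp1 took 0.409% to 0.441% of all reads in old libraries, where it ranked between 8th and 12th of the 27179 genes, and 0.0102% to 0.0111% in young libraries, where it ranked between 2015 and 2262. The old mean was 41.9 times the young mean (log2 difference −5.39 ± 0.07, adjusted p = 1.78e-25). The summed macrophage markers given above were also higher in old than in young cultures, although 1 of the 15 tested was called higher in young MSCs. Their part in the difference of Spp1 was not tested.

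Ibsp (bone sialoprotein), which nucleates hydroxyapatite, was at the edge of detection in young MSCs. Only 2 reads were found over the 6 young libraries, 1 in each of 2 libraries, and the lowest, median and highest were 0, 0 and 1.03 normalized counts. Old libraries held 35.4, 48.9 and 63.5, and rejuvenated old libraries 5.79, 9.47 and 19.8. The ratio of old to young means was 149.9, with a counting interval of 41.1 to 1244, and the difference on the log2 scale was −5.32 ± 0.30 (adjusted p = 6.94e-14).

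Dmp1, an acidic phosphoprotein of osteocytes and late osteoblasts, held 2.06, 5.32 and 13.9 normalized counts in young libraries, 109, 116 and 129 in old and 23.3, 31.4 and 38.1 in rejuvenated old. The 3 groups did not overlap. The old mean was 17.98 times the young mean, with a counting interval of 12.9 to 25.8 (log2 difference −4.13 ± 0.25, adjusted p = 2.70e-13).

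Bglap (osteocalcin), the vitamin K-dependent protein of mature osteoblasts, held 1.01, 2.52 and 4.35 normalized counts in young libraries, 26.9, 38.7 and 49.1 in old and 8.69, 13.3 and 18.1 in rejuvenated old, again without overlap. The old mean was 14.6 times the young mean, with a counting interval of 8.66 to 26.5 (log2 difference −3.53 ± 0.26, adjusted p = 1.34e-11). The mouse has a second osteocalcin gene, Bglap2 (Entrez gene 12097, chromosome 3 from 88377736 to 88378701), and a related gene, Bglap3. The longest coding transcripts of Bglap and Bglap2 in GENCODE M21 were identical at 98.9% of 439 aligned bases, and 74.7% of the 50-base windows of Bglap occur in Bglap2, so the split of reads between them is uncertain. Bglap2 carried more counts than Bglap in the old cultures, with 185, 206 and 238 in old libraries, 145, 162 and 181 in rejuvenated old and 0, 0.50 and 2.13 in young. Bglap3 had at most 3 reads in any group.

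Phex, the endopeptidase of osteocytes and osteoblasts that restrains the phosphate hormone Fgf23, differed less. Its normalized counts were 47.6, 72.8 and 78.7 in young libraries, 95.4, 107.95 and 117 in old and 47.4, 61.3 and 67.6 in rejuvenated old. Old libraries lay above all others, while the young and rejuvenated old libraries overlapped. The old mean was 1.59 times the young mean (log2 difference −0.68 ± 0.12, adjusted p = 2.99e-05).

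Sost, the secreted Wnt inhibitor of mature osteocytes, had 0 reads in all 18 libraries. At this depth a count of 0 allows up to 3 reads in a library, so its absence was not shown and no difference was detectable. Mepe, the member of the chromosome 5 family between Ibsp and Spp1, had 3 reads, all in 1 young library.

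The fitted differences of the low members depend on the pseudocount. With 10 in place of 1, the difference between young and old MSCs was −2.53 for Ibsp, −1.93 for Bglap, −2.98 for Dmp1 and −4.30 for Sp7, all with the same call. That of the abundant Spp1 stayed at −5.39, so the order of the members by size of the difference depends on the pseudocount.

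The effect of co-culture was examined next, by comparing rejuvenated old with old MSCs. The matrix and osteocyte genes Ibsp, Dmp1, Bglap, Phex and Spp1 were lower after co-culture, while Sp7 and Alpl had higher means and Runx2 was 8.70% lower. Of the 8 tested members 7 were called, 6 lower and 1 higher. Among all tested genes 41.6% were called, 20.6% lower and 21.0% higher. For 5 members, the matrix and osteocyte genes just named, the libraries of both groups did not overlap, which 22.0% of tested genes showed. The median difference was −0.72 over the 8 members and 0.01 over all tested genes. Bglap and Ibsp, whose passing had a difference from old MSCs built in, are again among these members. With a minimum mean of 50, under which neither was tested, 5 members were called, Alpl higher and Runx2, Spp1, Dmp1 and Phex lower. At that setting 5660 of 12203 tested genes were called.

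Ibsp, Dmp1 and Bglap had the largest differences of the 8. The mean of Ibsp fell by 78.8% from 50.6 ± 11.1 to 10.7 ± 5.23 (log2 difference −2.22 ± 0.30, adjusted p = 2.92e-06). Dmp1 fell by 73.9% from 117 ± 6.78 to 30.6 ± 5.77 (log2 difference −1.92 ± 0.25, adjusted p = 1.69e-06). Bglap fell by 65.1% from 38.4 ± 7.03 to 13.4 ± 3.14 (log2 difference −1.46 ± 0.26, adjusted p = 1.02e-04). For these 3 genes the highest rejuvenated old library was at 19.8, 38.1 and 18.1 normalized counts, and the lowest old library at 35.4, 109 and 26.9. With a pseudocount of 10 the differences were −1.56 for Ibsp, −1.66 for Dmp1 and −1.05 for Bglap, so the order of Ibsp and Dmp1 changed.

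Phex fell by 44.4% from 107 ± 9.23 to 59.7 ± 7.14 (log2 difference −0.84 ± 0.12, adjusted p = 1.15e-05). Spp1 fell by 33.2% from 112981 ± 3243 to 75480 ± 12242 (log2 difference −0.60 ± 0.07, adjusted p = 5.96e-07). The SD of Spp1 was thus larger among rejuvenated old than among old libraries. In replicates 1 to 6 of the rejuvenated old MSCs Spp1 was 78511, 88548, 90406, 69098, 64220 and 62098. Of the 15 tested macrophage markers, 13 were not called between rejuvenated old and old MSCs. After co-culture 1 was called higher and 1 lower, where 41.6% of all tested genes were called. The summed levels of the 17 macrophage markers overlapped between these groups. The part of macrophages in the fall of Spp1 after co-culture was not tested.

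Among the regulators and Alpl, Runx2 was lower after co-culture, while Sp7 and Alpl had higher means. Runx2 went from 2114 ± 70.7 to 1930 ± 117 (log2 difference −0.13 ± 0.04, adjusted p = 0.0125), with overlapping libraries. Alpl was 1.11 times as high after co-culture (1729 ± 81.4 against 1558 ± 50.2), a log2 difference of 0.15 ± 0.06 with adjusted p = 0.0430. This call was lost in 12 of 30 alternative fits, with adjusted p up to 0.0870, among them 9 of the 18 that left out 1 library. Sp7 had a mean of 352 ± 41.8 after co-culture and 241 ± 31.2 in old MSCs, with only rejuvenated old replicate 3, at 279, inside the range of the old libraries. Its log2 difference of 0.54 had an SE of 0.30, a 95% interval of −0.08 to 1.16 and an adjusted p of 0.154, and it was not called. Fitted on the 2 groups compared, the same difference had an adjusted p of 1.95e-04 with limma, and on the recovered reads of all groups 1.75e-04 with edgeR and 2.86e-07 with DESeq2. Without young replicate 4, the library with no Sp7 read, the adjusted p was 0.0265.

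**Figure D2:**
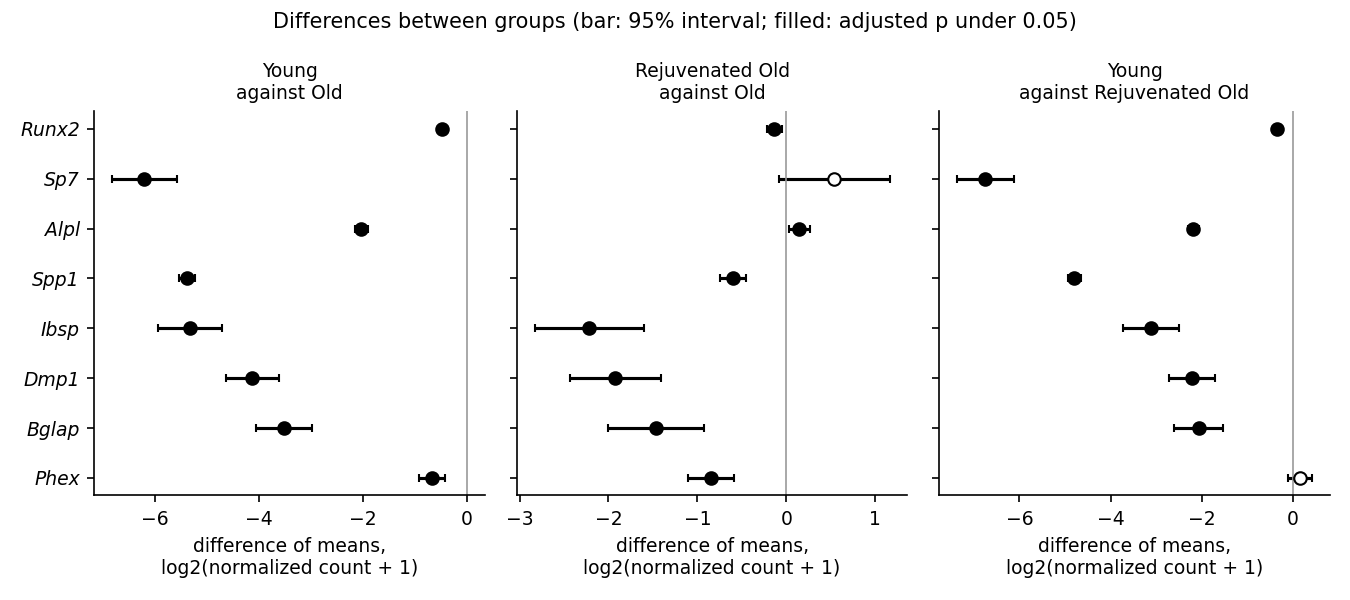
Differences of group means on the log2(normalized count + 1) scale (horizontal axes) for the 8 tested members, with 95% intervals and filled points where the adjusted p was under 0.05. All 8 members are below 0 between young and old MSCs, while Sp7 and Alpl lie above 0 between rejuvenated old and old MSCs, Sp7 unfilled.

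Bglap2, near-identical to Bglap, fell by a smaller share. Its mean was 163 ± 15.4 in rejuvenated old and 209.9 ± 23.0 in old MSCs, a log2 difference of −0.36 ± 0.23 with adjusted p = 0.215. Its rejuvenated old libraries nonetheless lay below all old libraries, and the adjusted p was 0.00278 in the fit of the 2 groups compared, 0.00408 with edgeR and 4.17e-04 with DESeq2. The difference between the changes of Bglap and Bglap2 was not tested.

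Young and rejuvenated old MSCs were also compared directly. This comparison shares its libraries with the preceding ones and is not independent of them. All tested members other than Phex were lower in young MSCs, so 7 of 8 were called and all 7 were lower, where 85.6% of tested genes were called and 44.1% were called lower. For the same 7 the libraries did not overlap, as for 70.5% of tested genes. The log2 difference was −6.75 ± 0.30 for Sp7 (adjusted p = 9.79e-16), −4.79 ± 0.07 for Spp1 (1.30e-24), −3.11 ± 0.30 for Ibsp (1.32e-09) and −2.21 ± 0.25 for Dmp1 (2.00e-08). It was −2.18 ± 0.06 for Alpl (adjusted p = 5.63e-20), −2.07 ± 0.26 for Bglap (1.37e-07) and −0.34 ± 0.04 for Runx2 (6.07e-08). Means of rejuvenated old MSCs thus lay between young and old for Runx2, Bglap, Ibsp, Spp1 and Dmp1, and on the far side of old from young for Sp7 and Alpl.

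For Phex the means were 67.7 ± 12.5 in young and 59.7 ± 7.14 in rejuvenated old MSCs. The log2 difference of 0.17 ± 0.12 had a 95% interval of −0.09 to 0.42 and an adjusted p of 0.217, which was 0.0243 after quantile normalization and 0.0383 without young replicate 4. With a pseudocount of 10 the differences of Ibsp, Bglap and Dmp1 in this comparison were −0.97, −0.89 and −1.32, with the same calls.

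Levels of different members were compared as normalized counts per kb of exon, using the exon lengths of GENCODE M21. In old MSCs Spp1 led with 68557 ± 1968 per kb, followed by Alpl (618 ± 19.9 per kb), Runx2 (298 ± 9.96 per kb), Bglap (87.2 ± 16.0 per kb), Sp7 (72.1 ± 9.31 per kb), Dmp1 (42.5 ± 2.45 per kb), Ibsp (24.5 ± 5.37 per kb), Phex (17.1 ± 1.47 per kb) and Sost (0). In this order the libraries of Bglap and Sp7 overlapped, as did those of Ibsp and Phex, and other neighbours did not. In rejuvenated old MSCs Spp1 (45801 ± 7428 per kb), Alpl (686 ± 32.3 per kb) and Runx2 (272 ± 16.6 per kb) again led, Sp7 (105 ± 12.5 per kb) stood above Bglap (30.5 ± 7.13 per kb) without overlap, and Dmp1, Phex and Ibsp (11.1, 9.52 and 5.20 per kb) overlapped each with the next. In young MSCs Spp1 led at 1635 ± 64.2 per kb, and Runx2 (214 ± 11.2 per kb) stood above Alpl (152 ± 18.1 per kb), the reverse of the other groups. All other members lay at 10.8 per kb or below in young MSCs, each overlapping with the next.

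**Figure D3:**
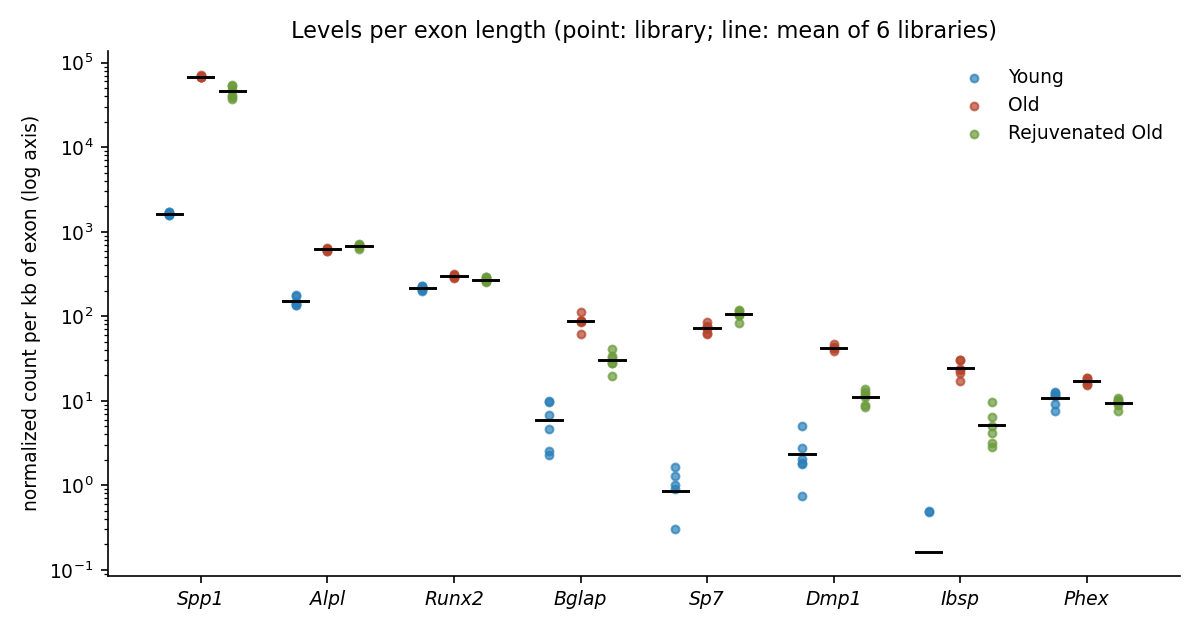
Normalized counts per kb of exon (vertical log axis) for the 8 members with reads, with a point for each library and a line for the mean of 6 libraries, and with libraries at 0 not drawn (4 young libraries for Ibsp and 1 for Sp7). Spp1 lies above all other members in every group, and the young points of Sp7, Ibsp, Dmp1 and Bglap lie at or below 10 per kb.

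The genes around the members were examined in 7 lists chosen for their roles, with 85 tested genes. Between young and old MSCs 83 of the 85 were called, 35 higher and 48 lower in young, so the wider lists did not share the single direction of the members. The share of all tested genes called was 85.7%, with 41.6% higher and 44.1% lower. Between rejuvenated old and old MSCs 55 of the 85 were called, 22 higher and 33 lower, where 41.6% of all tested genes were called, 21.0% higher and 20.6% lower. The counts for each list that follow are to be read against these shares, and no list was tested against them. List genes such as Col11a1 and Tcf7 passed the minimum mean of 10 only through the young libraries. A difference from young MSCs was thus built into their passing.

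Among 15 tested osteoblast transcription factors, 9 were higher and 6 lower in young than in old MSCs. The homeobox factors Dlx5 and Dlx6, which can activate Runx2 and Sp7, were near 0 in young MSCs, as was Sp7 but not Runx2. A link between these levels was not tested. Dlx5 had 3 reads over the 6 young libraries and a mean of 1022 ± 70.3 normalized counts in old MSCs, a ratio with a counting interval of 690.3 to 9789. Dlx6 had no read in young MSCs and 158 ± 12.6 in old MSCs, at least 50.1-fold higher when the young libraries are set at the floor of 3 reads each. Msx2, a related homeobox factor, was 12.7 times as high in old as in young MSCs (adjusted p = 3.11e-12). After co-culture Dlx6 fell to 120 ± 13.4 (adjusted p = 0.0147), and Mef2c, a factor of muscle, cartilage and bone, rose from 76.9 ± 7.98 to 111 ± 7.86 (adjusted p = 1.90e-04). Tcf7, a Wnt pathway factor, had means of 124 ± 21.0 in young MSCs, 11.5 ± 2.49 in old MSCs and 7.75 ± 2.67 after co-culture, and its call after co-culture (adjusted p = 0.0296) was lost with edgeR (0.0792) and DESeq2 (0.0967). In all, 5 of the 15 factors rose and 4 fell after co-culture.

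All 14 restrainers of osteoblast differentiation were called between young and old MSCs, 4 higher and 10 lower in young. Pparg, the master regulator of fat cells, was 13.1 times as high in old MSCs (4269 ± 71.2 against 326 ± 34.1), and the Notch target Hey1 7.04 times as high. The zinc finger protein Zfp521 went the other way, at 4886 ± 135 in young MSCs, 619 ± 31.3 in old MSCs and 387 ± 51.8 after co-culture. After co-culture 3 restrainers rose and 6 fell. The cartilage factor Sox9 rose from 604 ± 50.6 to 999 ± 52.2 (adjusted p = 7.34e-10), while Zfp521 (2.70e-08) and the deacetylase Hdac4 (282 ± 30.5 to 208 ± 27.6, adjusted p = 0.00178) fell.

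The 18 other bone matrix genes split evenly, 9 higher and 9 lower in young than in old MSCs, and after co-culture 5 rose and 7 fell. The fibrillar collagen gene Col11a1 and the small proteoglycan gene Fmod were 225 and 29.1 times as high in young as in old MSCs, opposite to all 8 tested members. The means of Col11a1 were only 6.00 in old and 9.90 in rejuvenated old MSCs, so its passing the minimum had this direction built in. The matricellular gene Postn fell after co-culture from 6537 ± 359 to 3277 ± 218, and Tnc from 7047 ± 453 to 3605 ± 348. Omd, a keratan sulphate proteoglycan of bone, rose from 1867 ± 59.7 to 3161 ± 330 (adjusted p = 1.61e-10). Bglap2 belongs to this list, and its difference between young and old MSCs was −7.10 ± 0.23.

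Of 13 mineralisation genes 6 were higher and 6 lower in young than in old MSCs. Smpd3, a sphingomyelinase needed for bone mineral, was 935 ± 30.7 in old and 34.9 ± 5.87 in young MSCs. Ahsg (fetuin-A) had 1 read over the young libraries and 19.9 ± 4.19 normalized counts in old MSCs, while the ectonucleotidase Nt5e was 18.5 times as high in young as in old. After co-culture 3 of the 13 rose and 7 fell. Enpp1, which makes the pyrophosphate that Alpl degrades, rose from 160 ± 15.6 to 217 ± 20.4 (adjusted p = 3.22e-05). Phospho1, which releases phosphate inside matrix vesicles, fell from 38.8 ± 9.57 to 23.7 ± 6.94 (adjusted p = 0.00567), and the phosphate carrier Slc20a1 from 1563 ± 44.2 to 1243 ± 64.2 (adjusted p = 2.54e-07).

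Of 10 other osteocyte genes 9 were matched and 6 were tested, 3 higher and 3 lower in young MSCs. Ptprz1 had no read in young MSCs and 119.9 ± 6.97 normalized counts in old, at least 37.997-fold higher against the floor of 3 reads per library. Pdpn (podoplanin), a marker of young osteocytes, was 4.00 times as high in young as in old MSCs. Gja1 (connexin 43), which joins osteocytes to each other, had means of 8480 ± 539 in young MSCs, 24154 ± 1096 in old MSCs and 14425 ± 1682 after co-culture (adjusted p = 2.92e-09 against old). Of the 6, 3 rose and 2 fell after co-culture, among them Irx5, which fell (adjusted p = 4.27e-06), and Capg, which rose (adjusted p = 3.40e-04).

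Of the 12 tested receptors of the secreted members, 10 were lower and 2 higher in young than in old MSCs, where 44.1% of all tested genes were lower and 41.6% higher. Spp1, Ibsp and Dmp1 bind integrins, and sclerostin binds Lrp4, Lrp5 and Lrp6. The integrin subunits Itga9 and Itga4 were 115 and 13.8 times as high in old as in young MSCs, and Lrp4 8.39 times. After co-culture 7 of the 12 fell and the other 5 were not called, where 20.6% of all tested genes fell. Itga8 fell from 62.1 ± 6.39 to 32.7 ± 4.74 (adjusted p = 4.00e-07), Lrp4 from 2476 ± 88.0 to 1702 ± 118 (2.77e-08) and Cd44, a further osteopontin receptor, from 2954 ± 189 to 2399 ± 264 (1.76e-04).

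Of 7 hormone receptors of osteoblasts 2 were higher and 4 lower in young MSCs. Vdr, the vitamin D receptor, was 11.7 times as high in old as in young MSCs, and Pth1r, the parathyroid hormone receptor, 6.43 times. After co-culture Vdr rose from 4760 ± 95.7 to 7033 ± 307 (adjusted p = 8.08e-10), Pth1r from 136 ± 16.0 to 239 ± 42.9 (0.00142) and Thra, a thyroid hormone receptor, from 4574 ± 128 to 5026 ± 206 (6.92e-04). The other 4 receptors were not called.

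**Figure D4:**
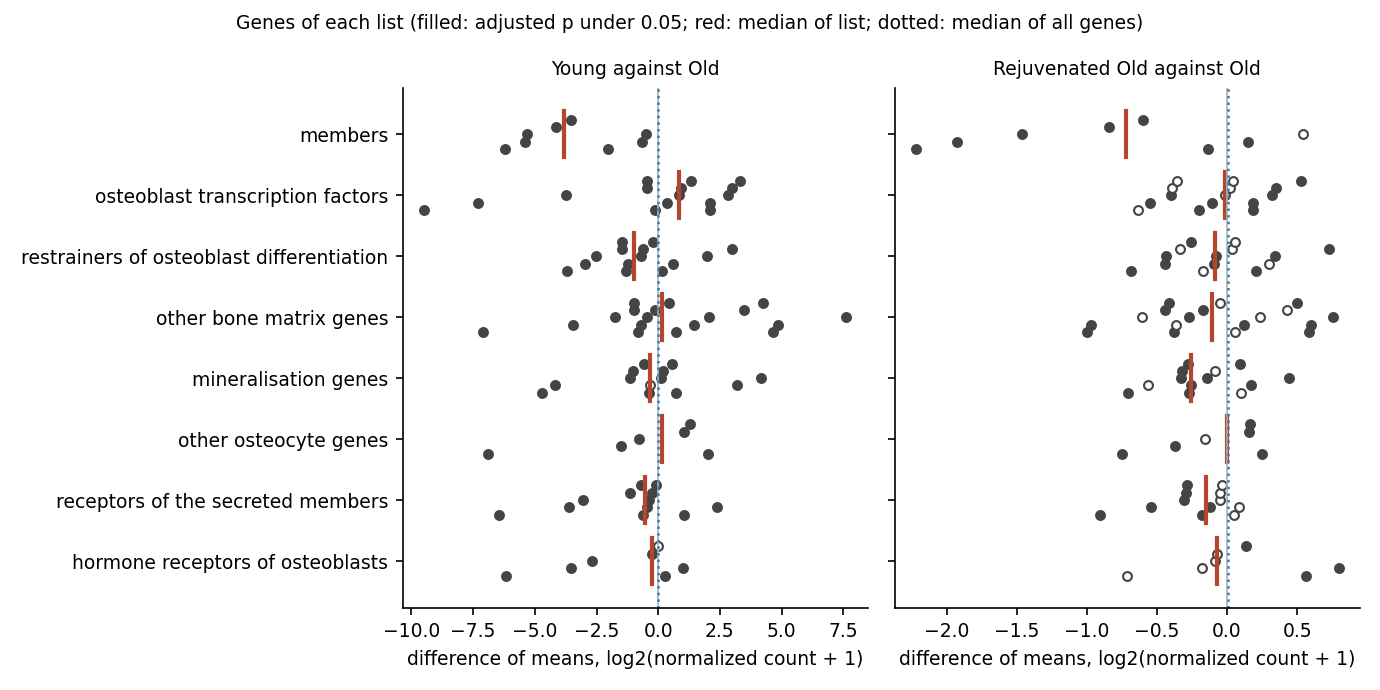
Differences of group means on the log2(normalized count + 1) scale (horizontal axes) for the 8 tested members and the 85 tested genes of 7 wider lists (rows), filled where the adjusted p was under 0.05, with the median of each list in red and that of all tested genes dotted. The members lie below 0 between young and old MSCs, whereas each wider list has genes on both sides.

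For each member the 3 named genes with the most similar profile over the 18 libraries were found by Pearson's r on the log2(normalized count + 1) scale, among 13185 candidates. The libraries form 3 separated groups, so r mainly carries the group differences, and it is a description without a test. Spp1 was most similar to Sulf1, Dkk3 and Arhgef5 (r = 0.999 each), and Alpl to Psd4, Adgrg2 and Ppp1r3b (0.997 each). Sp7 was most similar to Ptprq, Ctbs and Lmo2 (0.993 each), and Runx2 to Slc35d1 (0.983), Cpeb2 (0.978) and Nav3 (0.976). Bglap was most similar to Cpz, Ckmt1 and Slc43a2 (0.979, 0.976 and 0.973), Ibsp to Ppm1h, Tgfbi and Zranb3 (0.985, 0.983 and 0.981), and Dmp1 to Ogdhl, Pacs2 and Slc16a9 (0.976, 0.9755 and 0.9753). Phex stood apart, with r of 0.896 to Hmox1, 0.875 to Scnn1a and 0.875 to Ctsd. No member was among the 3 most similar genes of another member.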

How the data were processed

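Polyadenylated RNA was sequenced from 18 MSC cultures with a stranded kit. According to the study's methods and the submitters' processing notes, the authors aligned reads to mm10 with HISAT2, used StringTie and featureCounts for assembly and counting, and normalized with DESeq2. Versions, annotation and strand setting are not given in the sources used here. Each deposited number is a signal, that is, the reads of a gene in a library over that library's size factor. Whole reads were recovered from 100% of values (within 0.1 read), and 1 read was the unit of the counting intervals, which cover counting error only. Exon lengths and positions came from GENCODE M21 and RefSeq for GRCm38.p6, the mm10 build.

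Tests used limma 3.58.1 (R 4.3.3) of log2(normalized count + 1) in a single fit of the 3 groups, a prior variance following the mean, a minimum mean of 10 and Benjamini-Hochberg adjustment over all tested genes. On the recovered reads edgeR 4.0.16 and DESeq2 1.42.0 were alternatives, with other pseudocounts, filters, scalings and the omission of each library. The main limma fit, edgeR and DESeq2 were tested on simulated data, and the other alternatives were not. The simulation changed few genes, in the young libraries only, with the same spread setting for all genes. It therefore does not cover differences as widespread as those in these data. Same-numbered replicates did not deviate together (correlations of −0.152 to 0.0736, none of 18 pairs over 0.1), so the numbers were not treated as pairs.

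The members and lists were chosen with earlier results of these data known. Genes named were all members, Bglap2, Bglap3 and Mepe, in each list and in each comparison with old MSCs the 3 called genes with the largest difference, in each marker list the 3 with the highest mean, and the 3 most similar genes of each member. The 3 highest marrow stromal markers were left unnamed, and some other markers, such as Thy1, are named outside this rule. Of the 160 listed genes other than members 1 symbol had no row, a misspelling of Dstn in the list of other osteocyte genes, so Dstn was not examined. Sequences are RefSeq promoters, and those of Sp7 and Bglap2 are not shown. The values of 1 gene that this rule names are not reported here.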

Additional observations from a re-analysis of the deposited data

Results flagged for a closer look

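Among 27 sets of 6 libraries (the 8 tested members and Bglap2 in 3 groups), 1 held a library far from the others. Spp1 in old replicate 1 had a normalized count of 119241, while the other old libraries lay between 110455 and 113298, and its gap to the next library was 0.676 of the range, above the 95% critical value of Dixon's test for 6 values. Chance alone flags about 1 set in 20.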

How the results depend on the processing

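The counts of members and list genes called and the differences of the named genes were recomputed under 30 alternatives, or 29 for Ahsg, Bglap, Hey1, Ibsp, Itga4, Phospho1 and Tcf7, which were not tested with a minimum mean of 50. The order per kb and the most similar genes were not recomputed. Of 2179 values 2147 kept their direction and their side of the threshold (for counts, stayed within 1.5 times), 21 lost a call, 11 gained a call and none was reversed. The number of members called was 6 to 8 between young and old MSCs, 5 to 8 between rejuvenated old and old, and 5 to 8 between young and rejuvenated old, the lowest with a minimum mean of 50, under which Bglap and Ibsp were not tested. With 1 library left out these counts were 8, 6 to 8 and 7 to 8. Of the wider lists 76 to 87 genes, 47 to 58 and 72 to 83 were called in the same 3 comparisons (filters on low values also change how many were tested). With 1 library left out these counts were 81 to 84, 47 to 55 and 78 to 81, so calls of list genes not named here changed as well. Among the named genes, the calls that changed were those of Alpl, Sp7, Bglap2 and Tcf7 after co-culture and of Phex between young and rejuvenated old MSCs. Alpl lost its call with no filter on low values (adjusted p = 0.0614), scaling to the same total of reads (0.0767) and a single prior variance (0.0627), and the cause was not tested. Sp7 and Bglap2 were also called with a pseudocount of 10 (adjusted p = 4.83e-04 and 0.00318). Same-numbered replicates share only a number. With the replicate number as a block the members called were 8, 7 and 7, and of the wider lists 83, 52 and 79 genes were called, against 83, 55 and 79 without it. Depth limits Sost, Mepe and Bglap3 in all groups, and Ibsp, Bglap, Sp7 and Bglap2 in young MSCs, where their folds rest on 2 to 16 reads.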
